A study of Mus musculus with 4 samples.

Results

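The 10 genes described here encode the coat of caveolae and part of the dystrophin-glycoprotein complex in mouse aortic grafts. They were chosen by name, with earlier results of these libraries known, and are the caveolins Cav1, Cav2 and Cav3, the cavins Cavin1, Cavin2 and Cavin3, dystrophin (Dmd), and the sarcoglycans Sgca, Sgcb and Sgcd. All 10 were found among the 54752 genes of the count table, and all 10 passed the filter on low counts that left 16498 genes tested. RNA depleted of ribosomal RNA was sequenced from whole abdominal aorta 4 weeks after transplantation, in 2 libraries of ALLO grafts, which the study's title calls allografts in chronic rejection, and 2 libraries of a group named ISO, which the labels do not spell out. Strain, age and sex of donors and recipients are not in the labels, and nothing there ties the replicates of a group to separate animals. The p-values therefore measure only the spread between these libraries, which may be technical in part.

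Caveolae are flask-shaped pits of the plasma membrane that are dense in smooth muscle cells, endothelial cells and adipocytes. Caveolins insert into the inner leaflet as oligomers, and cavins assemble on them from the cytosol as a coat that can come off when the membrane is stretched. The dystrophin-glycoprotein complex ties cortical actin to laminin outside the cell, through dystrophin, dystroglycan and a cluster of sarcoglycans. In smooth muscle both lie in the same longitudinal strips of membrane, between the dense plaques where integrins anchor actin.

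The libraries held 17532344 to 20194854 counts. ISO replicate 1 stood apart from the others in sex-linked transcripts, with 10647 counts of Xist and 0 of Ddx3y, against at most 8 and at least 2105 in the other 3 libraries. The ISO libraries were therefore not made from the same RNA, and the spread within ISO includes this difference in sex-linked transcripts. For the ALLO libraries, which were alike in these transcripts, the counts do not tell whether they come from separate animals. ISO replicate 1 also carried more leukocyte RNA than ISO replicate 2, since 8 leukocyte markers summed to 152 and 51.2 CPM (counts scaled to a common library size, with composition allowed for by TMM). Those markers summed to 2164 and 1786 CPM in the ALLO libraries. Values below are given for ISO replicates 1 and 2 and then ALLO replicates 1 and 2, and every group has n = 2.

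Transcripts of caveolae and of the dystrophin complex were lower in ALLO grafts. Of the 10 members 9 passed edgeR's quasi-likelihood test at a Benjamini-Hochberg adjusted p under 0.05, all as lower, and 1 (Cavin2) did not pass. Among all genes tested, 14.8% were called lower and 18.4% higher, 33.1% in all. The members had a median log2 change (ALLO minus ISO) of -2.70, beside 0.03 over all genes tested. Both ALLO libraries lay below both ISO libraries for all 10 members, an order that 35.4% of the genes tested showed. Smooth muscle markers moved with them: 7 of 8 were lower, with a median log2 change of -4.18, and their summed level was 29633 and 29835 CPM in ISO against 1212 and 2463 in ALLO, with none of the 8 at 0. In whole tissue, fewer smooth muscle cells and less RNA per cell cannot be told apart.

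**Figure D1:**
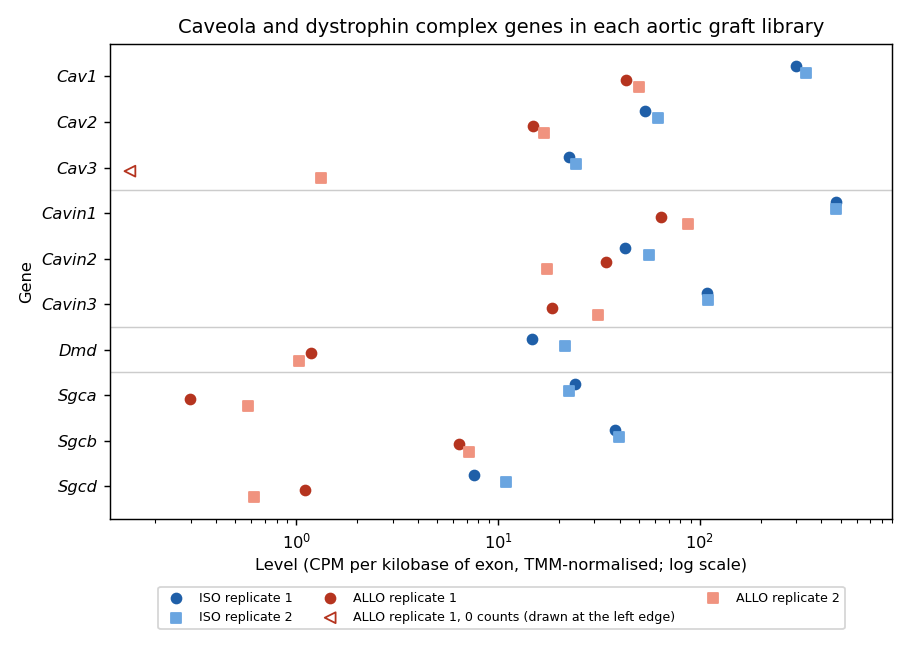
Level of each member gene (rows) in each library, in CPM per kilobase of exon on a log scale. Circles are replicate 1 and squares replicate 2, ISO in blue and ALLO in red, and the open triangle marks Cav3 with 0 counts in ALLO replicate 1. Both ALLO libraries lie to the left of both ISO libraries in every row, with the narrowest gap in Cavin2.

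Per kilobase of exon, the scale on which genes can be compared, 5 of the 6 coat genes were the most abundant members in ISO, all but Cav3. Cavin1 averaged 470.1 ± 0.0581 CPM per kilobase (SD), Cav1 316 ± 25.6 and Cavin3 109 ± 0.552. Cav2 at 57.6 ± 6.23 and Cavin2 at 49.1 ± 9.38 CPM per kilobase came next, and their replicates overlapped. Sgcb followed at 38.9 ± 1.21, then Cav3 at 23.5 ± 1.32 and Sgca at 23.3 ± 1.10, which overlapped, then Dmd at 18.1 ± 4.77 and Sgcd at 9.24 ± 2.36. The exonic length of Dmd, 23801 bases, sums the exons of all its transcripts, so its level per kilobase is a low estimate for any short transcript. In ALLO Cavin1 at 75.7 ± 16.8 and Cav1 at 46.8 ± 4.88 CPM per kilobase were again the highest. Cavin2 at 25.8 ± 11.8 and Cavin3 at 24.8 ± 8.90 followed and overlapped, then Cav2 at 15.8 ± 1.39 and Sgcb at 6.81 ± 0.539. The lowest were Dmd, Sgcd, Cav3 and Sgca, between 1.11 and 0.436 CPM per kilobase on average, and neighbours among these 4 overlapped.

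All 3 caveolins were lower in ALLO. Cav1 (ENSMUSG00000007655.16, chromosome 6, 17306335 to 17341452, mm10), the principal caveolin of smooth muscle and endothelium, had 1028 and 1152 CPM in ISO and 149 and 173 CPM in ALLO. The ALLO libraries lay close together and far below either ISO library. Its mean was 6.77-fold lower, which is a log2 change of -2.76 ± 0.26 (SE, edgeR adjusted p = 0.00388). Cav2 (ENSMUSG00000000058.6, chromosome 6, 17281185 to 17289115), which forms hetero-oligomers with caveolin-1 and needs it to reach the membrane, lies 17219 bases upstream of Cav1 on the same strand. It had 177 and 207 CPM in ISO and 49.5 and 56.1 CPM in ALLO, again with no overlap. The mean fell 3.64-fold, with a log2 change of -1.86 ± 0.20 (edgeR adjusted p = 0.00498).

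Within libraries the balance of these neighbours moved. The Cav1:Cav2 ratio per kilobase was 5.61 and 5.40 in ISO and 2.92 and 2.98 in ALLO, a gap much wider than the spread within either group. With 2 libraries against 2 an exact permutation test of such a ratio cannot pass 0.05, so ratios are given as descriptions.

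Cav3 (ENSMUSG00000062694.7, chromosome 6, 112459505 to 112472872), the caveolin best known from striated muscle, had 446 and 468 counts in ISO and 0 and 34 counts in ALLO. These were 26.1 and 28.2 CPM against 0 and 1.54 CPM, where the 0 allows up to 0.308 CPM (6 counts, or 3 read pairs). ISO replicates agreed closely, and ALLO replicate 2 carried all of the counts in ALLO. Over both libraries of a group the ISO to ALLO ratio was 33.1 (95% interval from counts 20.5 to 57.4, counting error only). The log2 change was -5.09 ± 1.21 (edgeR adjusted p = 0.0305), and this was the largest adjusted p of the 9. The call was lost with the Wald test of DESeq2 (adjusted p = 0.0948). Without ALLO replicate 1 the log2 change was -4.10, and without ALLO replicate 2 the gene was at least 88.1-fold lower. In ISO, Cav1 exceeded Cav3 13.2- and 13.7-fold per kilobase, and in ALLO replicate 2, where the ratio exists, 37.6-fold.

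Of the 3 cavins, 2 passed as lower and 1 did not pass. Cavin1 (ENSMUSG00000004044.9, chromosome 11, 100956733 to 100970887), the cavin without which caveolae do not form, had 1686.1 and 1686.4 CPM in ISO and 229 and 314 CPM in ALLO. ISO libraries were almost identical, and ALLO replicate 2 was 1.37 times ALLO replicate 1. The mean fell 6.21-fold, with a log2 change of -2.63 ± 0.30 (edgeR adjusted p = 0.00531). The Cav1:Cavin1 ratio per kilobase was 0.635 and 0.712 in ISO and 0.678 and 0.573 in ALLO, so the groups overlapped.

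Cavin3 (ENSMUSG00000037060.3, chromosome 7, 105480083 to 105482300), a cavin that binds protein kinase C delta, had 181 and 182 CPM in ISO and 30.8 and 51.7 CPM in ALLO. The mean fell 4.40-fold (log2 change -2.14 ± 0.30, edgeR adjusted p = 0.00817). Of its exonic bases 22.5% lie in a gene on the opposite strand, Gm45667, and whether counting used the strand is not given in the sources used here, so its value is uncertain. The other 9 members share no exonic base with another gene of the table.

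Cavin2 (ENSMUSG00000045954.7, chromosome 1, 51289126 to 51302960), which helps shape the caveolar membrane and is prominent in endothelium, was the member that did not pass. It had 130 and 170 CPM in ISO and 104 and 53.4 CPM in ALLO. The groups came close, since ALLO replicate 1 reached 104 CPM beside 130 in ISO replicate 1. The log2 change was -0.93 ± 0.37 (edgeR adjusted p = 0.115). It passed without ALLO replicate 1 (-1.46, edgeR adjusted p = 0.0322), and it was -0.52 without ALLO replicate 2. The Cavin1:Cavin2 ratio per kilobase was 11.1 and 8.43 in ISO against 1.87 and 5.01 in ALLO, and Cavin1:Cavin3 was 4.32 and 4.29 against 3.45 and 2.81. Neither pair of groups overlapped, and both ratios were lower in ALLO.

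Endothelial markers, given beside Cavin2 and Cav1 because endothelium is rich in caveolae, were lower in 4 of 8 cases and higher in 1. Among all genes tested, 14.8% were called lower and 18.4% higher. The endothelial markers had a median log2 change of -0.96. Their summed level was 1642 and 1703 CPM in ISO and 682 and 823 in ALLO, and none was at 0. Adipocyte markers, from the third cell type dense in caveolae, were lower in 1 and higher in 2 of 8, near the shares over all genes tested. The summed level of the adipocyte markers was 1465 and 1252 CPM in ISO and 1072 and 1400.2 in ALLO. Lep was the 1 adipocyte gene below the filter, and no marker of that list was at 0 in a whole group. The part of these cells in the caveolar results was not tested.

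Dystrophin had the third-lowest log2 change of the 10 members. Dmd (ENSMUSG00000045103.17, chromosome X, 82948870 to 85206141), whose long product links actin to dystroglycan, had 351 and 512 CPM in ISO and 28.3 and 24.5 CPM in ALLO. ALLO libraries agreed, whereas ISO replicate 2 was 1.46 times ISO replicate 1, the library with Xist. The mean fell 16.3-fold, with a log2 change of -4.03 ± 0.30 (edgeR adjusted p = 0.00287). With 1 library left out, the log2 change lay between -4.29 and -3.76. Counts per gene do not separate the full-length transcript from shorter ones that start at internal promoters. The Cav1:Dmd ratio per kilobase rose from 20.2 and 15.6 in ISO to 36.4 and 48.8 in ALLO, without overlap.

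Utrophin (Utrn), the autosomal homologue that can take the place of dystrophin, had 405 and 515 CPM in ISO and 205 and 151 CPM in ALLO. It was lower, with a log2 change of -1.37 ± 0.27 (edgeR adjusted p = 0.0183), and did not pass when ISO replicate 2 was left out (edgeR adjusted p = 0.0813). The Dmd:Utrn ratio per kilobase was 0.623 and 0.714 in ISO and 0.0993 and 0.116 in ALLO. Utrn exceeded Dmd in every library on this scale, and by far more in ALLO. In ISO the size of the excess depends on the exonic lengths, since the level of Dmd per kilobase is a low estimate for any short transcript. In CPM the genes were close in ISO replicate 2, at 515.2 for Utrn and 511.6 for Dmd.

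**Figure D2:**
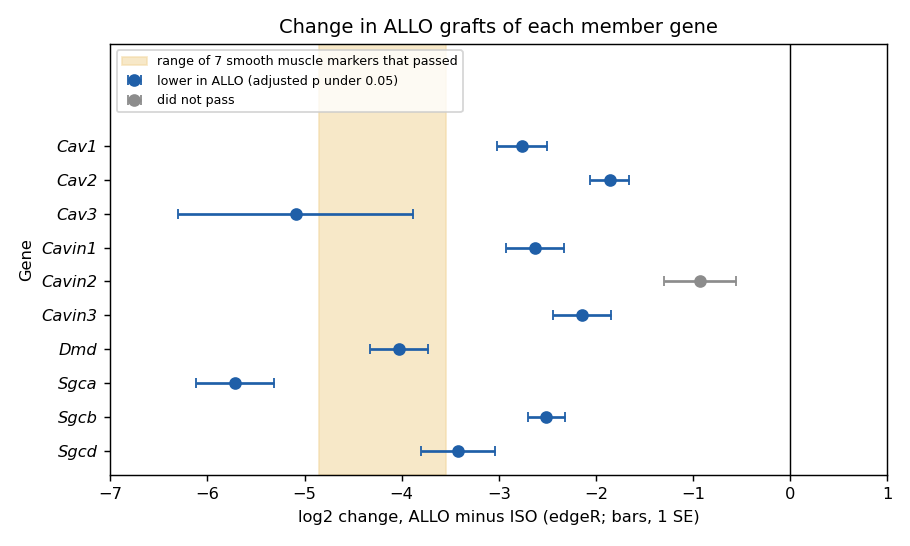
log2 change in ALLO grafts (horizontal axis) of each member (rows), with 1 SE from edgeR as bars; blue points passed and the grey point did not. The shaded band is the range of 7 smooth muscle markers that passed, -4.85 to -3.54, which holds Dmd, while Cav3 and Sgca lie to its left and the other 7 members to its right.

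Sarcoglycans are single-pass proteins that assemble beside dystroglycan and steady it. Sgca (ENSMUSG00000001508.15, chromosome 11, 94962791 to 94976327), the alpha subunit, typical of striated muscle, had 715 and 648 counts in ISO and 10 and 22 counts in ALLO. These were 41.8 and 39.1 CPM against 0.514 and 0.999 CPM. Both ALLO libraries were near the lower limit of what the depth can measure, and the ISO to ALLO ratio of the counts was 52.5 (95% interval 32.1 to 92.3, counting error only). With a log2 change of -5.72 ± 0.40 (edgeR adjusted p = 0.00274) it had the lowest change of the 10, and 0.764% of all genes tested had a lower one.

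Sgcb (ENSMUSG00000029156.11, chromosome 5, 73632749 to 73647790), the beta subunit around which the complex is built, had 154 and 161 CPM in ISO and 26.1 and 29.1 CPM in ALLO. Replicates were tight in both groups. Its mean fell 5.71-fold, with a log2 change of -2.51 ± 0.19 (edgeR adjusted p = 0.00302). Sgcd (ENSMUSG00000020354.15, chromosome 11, 46896253 to 47988969), the delta subunit, which pairs with beta as the core, had 62.5 and 90.1 CPM in ISO and 9.15 and 5.13 CPM in ALLO. Replicates of Sgcd varied more, by 1.44-fold in ISO. The mean fell 10.7-fold, with a log2 change of -3.42 ± 0.38 (edgeR adjusted p = 0.00504). The Sgcb:Sgcd ratio per kilobase was 5.02 and 3.64 in ISO and 5.80 and 11.6 in ALLO, without overlap but with a wide spread in ALLO.

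Another subunit of the sarcoglycan cluster and sarcospan fell as well. Sgce, the epsilon subunit, which is widely expressed and replaces alpha outside striated muscle, had a log2 change of -1.6 ± 0.19, and sarcospan (Sspn), a small membrane protein bound to the cluster, one of -1.96 ± 0.24 (edgeR adjusted p = 0.00579 for both). Sgcz, the zeta subunit, had 0 counts in all 4 libraries and was not tested. Of this list of 3 genes, then, 2 fell and none rose (14.8% and 18.4% of all genes tested).

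The alpha to epsilon balance shifted. Sgca:Sgce per kilobase was 3.00 and 2.70 in ISO and 0.0990 and 0.238 in ALLO, without overlap. Which of the pair was higher in ISO depends on the exonic lengths used, 1735 bases for Sgca and 10612 for Sgce. In CPM, Sgce at 85.3 and 88.7 lay above Sgca at 41.8 and 39.1 in ISO. In ALLO Sgce was the higher on both scales. Because Sgca, Cav3 and Dmd are also genes of skeletal and cardiac muscle, markers of those tissues are given here. The 8 skeletal muscle markers summed to 4.62 and 8.63 CPM in ISO and 5.5 and 3.27 in ALLO, with Myh1, Myh2 and Myh4 at 0 in both ISO libraries. In ISO the summed list was below Sgca alone. The part of striated muscle RNA in the levels of Sgca, Cav3 and Dmd was not tested. Of the 8 skeletal muscle genes 4 were tested, of which 1 fell (Ckm) and none rose, while Acta1, Myh1, Myh2 and Myh4 were not tested. Ckm rests on few counts, 10 and 60 in ISO and 0 and 2 in ALLO (edgeR adjusted p = 0.0466). Of its exonic bases 15.5% are shared with another gene. Cardiac markers summed to 101 and 123 CPM in ISO and 22.1 and 23.3 in ALLO, of which Ryr2, a calcium release channel, made up 85.2 and 101 CPM in ISO. In the cardiac list 5 of 8 genes were tested, 2 of them lower (Ryr2 and Actc1) and 1 higher (Tnni3). Those not tested were Myl2, at 0 in ISO, and Nppa and Myl7, at 0 in ALLO. Beside both muscle lists, 14.8% of all genes tested were called lower and 18.4% higher.

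**Figure D3:**
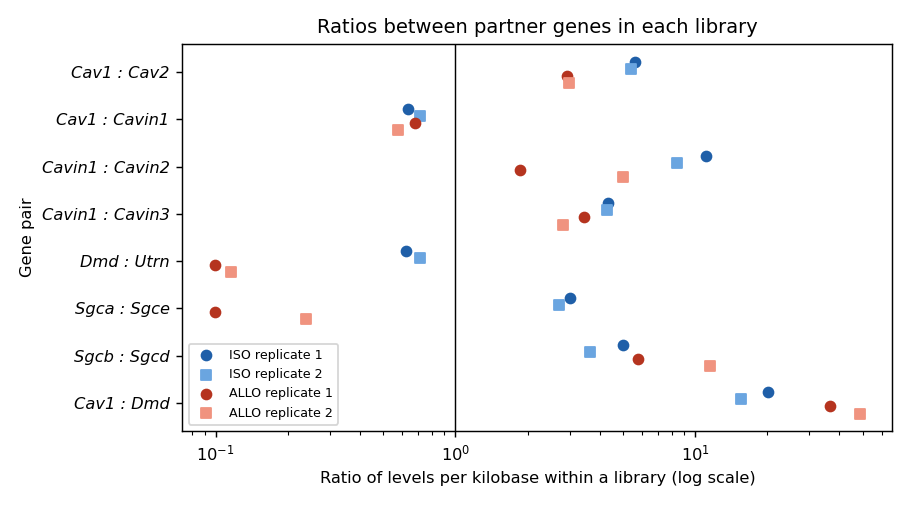
Ratio of the levels per kilobase of 2 genes within each library (horizontal axis, log scale; rows are gene pairs, colours and symbols the libraries). ISO and ALLO points separate in every row except Cav1:Cavin1, with the widest gaps for Sgca:Sgce and Dmd:Utrn.

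Relative to smooth muscle markers, 6 of the 10 members were higher in ALLO. For each library the mean of log2(CPM + 0.5) over the 8 markers was subtracted from the member's own log2(CPM + 0.5). By this measure Cav1 stood at 0.29 and 0.64 in ISO and 1.68 and 1.27 in ALLO, and Cavin1 at 1.01 and 1.19 against 2.30 and 2.13. Cav2, Cavin2, Cavin3 and Sgcb were likewise higher in both ALLO libraries than in both ISO libraries, by 1.92, 2.78, 1.6 and 1.27 on average. On this scale these 6 genes were lower in ALLO by less than the mean of the markers. The markers themselves had a median log2 change of -4.18. Of all genes tested, only 2.72% had a lower log2 change than Sgcd (-3.42). Being higher in ALLO on this scale is therefore common among genes and not particular to these 6.

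Dmd and Sgcd overlapped between groups on this relative scale, with mean differences of -0.22 and 0.41. Sgca was lower in both ALLO libraries (-4.31 and -4.23 in ISO, -5.52 and -5.58 in ALLO), with a mean difference of -1.29. For Cav3, at 0 counts in ALLO replicate 1, the value there is set by the 0.5 CPM added before taking logs, and no direction is given. Its mean difference was -1.01, and with 0.1, 1 or 2 CPM added, alternatives chosen after seeing the data, it was -2.32, -0.38 and 0.28. Sgca moved with that choice as well, to -1.87, -0.82 and -0.22, and stayed lower in both ALLO libraries. With 2 CPM added its groups almost touched, at -4.35 and -4.39 in ISO and -4.4 and -4.79 in ALLO. One of the markers, Casq2, was under 2 CPM in every library. Without it, also chosen after seeing the data, the relative difference of Dmd turned to 0.31, that of Sgca was -0.76 with the groups still apart, and Cav3 overlapped between groups at -0.48. The 6 genes above kept their direction without overlap there and with each amount added, at 1.53 for Cav1, 1.64 for Cavin1 and 1.80 for Sgcb without Casq2. No test was made on this scale.

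**Figure D4:**
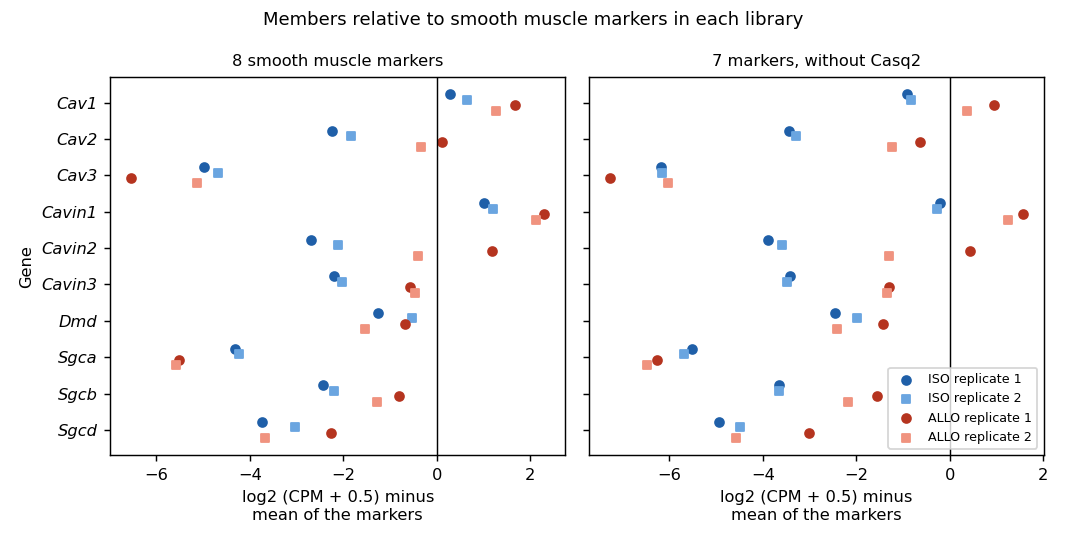
Each member's log2(CPM + 0.5) minus the mean of the smooth muscle markers in the same library (horizontal axis), with 8 markers at left and without Casq2 at right. ALLO points (red) lie to the right of ISO points (blue) for Cav1, Cav2, the 3 cavins and Sgcb in both panels, and to the left for Sgca, whose distance depends on the 0.5 CPM added.

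The sequence before the start site is shown for 4 members: Dmd, the 1 member with a CArG box there, Sgca and Cav3, which had the lowest log2 changes, and Cav1, the most abundant caveolin. Sequences are from RefSeq on GRCm38.p6 (mm10), which gave 12 start sites for 9 of the 10 members. The 250 bases before each were searched on both strands for the CArG box, the motif bound by serum response factor, for the E-box (CANNTG), bound by basic helix-loop-helix factors, and for the MCAT motif (CATTCC), bound by TEAD factors. Matches are in capitals, and no 2 of them overlap.
Dmd (chrX:82948620-82948869, plus strand): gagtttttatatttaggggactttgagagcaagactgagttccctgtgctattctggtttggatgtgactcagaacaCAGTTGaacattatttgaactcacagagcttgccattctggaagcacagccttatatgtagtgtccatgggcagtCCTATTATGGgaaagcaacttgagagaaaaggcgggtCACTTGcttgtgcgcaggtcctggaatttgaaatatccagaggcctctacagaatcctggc
Sgca (chr11:94976328-94976577, minus strand): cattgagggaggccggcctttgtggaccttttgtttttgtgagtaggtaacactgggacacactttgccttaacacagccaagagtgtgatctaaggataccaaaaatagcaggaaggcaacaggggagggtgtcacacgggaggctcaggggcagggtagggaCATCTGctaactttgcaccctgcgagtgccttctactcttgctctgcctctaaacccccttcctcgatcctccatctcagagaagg
Cav3 (chr6:112459255-112459504, plus strand): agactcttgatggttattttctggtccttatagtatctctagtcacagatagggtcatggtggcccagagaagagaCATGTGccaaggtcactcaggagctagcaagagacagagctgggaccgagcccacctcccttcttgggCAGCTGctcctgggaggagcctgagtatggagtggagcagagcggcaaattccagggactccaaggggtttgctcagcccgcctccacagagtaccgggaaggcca
Cav1 (chr6:17306085-17306334, plus strand): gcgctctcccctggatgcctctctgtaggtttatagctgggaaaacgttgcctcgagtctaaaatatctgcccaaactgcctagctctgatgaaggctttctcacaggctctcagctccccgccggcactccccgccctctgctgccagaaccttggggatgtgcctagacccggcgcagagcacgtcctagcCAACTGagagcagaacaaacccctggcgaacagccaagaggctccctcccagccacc
The capitals in the Dmd sequence mark a CArG box at -98 to -89 from the start site, between E-boxes at -173 to -168 and -61 to -56. Those in Sgca, Cav3 and Cav1 mark E-boxes. A CArG box was found before 1 of the 12 start sites, beside 1.47% of all 32851 RefSeq start sites searched in the same window. E-boxes were found before 7 of the 12 (beside 66.2%), and MCAT motifs before 3, namely that of Sgcd and both of Cavin1, whose windows overlap (beside 12.6%). A match is a run of letters and not a measured binding site.

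Accessory proteins of caveolae were mixed. Of 9 genes, 3 fell, 1 rose and 5 did not pass, with a median log2 change of -0.11. Beside this, 14.8% of all genes tested were called lower and 18.4% higher. Ehd2, the ATPase that rings the neck of the caveola and holds it at the surface, had 771 and 845 CPM in ISO and 196 and 259 CPM in ALLO (log2 change -1.83 ± 0.26, edgeR adjusted p = 0.00848). Pacsin3, a membrane-bending F-BAR protein of muscle, changed by -2.68 ± 0.31 (edgeR adjusted p = 0.00547). Its widely expressed relative Pacsin2 changed by -1.20 ± 0.23 (edgeR adjusted p = 0.0165), a call lost without ISO replicate 1 (0.0559) and without ISO replicate 2 (0.0716). Pacsin1, the form known from neurons, went from 2 counts over the ISO libraries to 269 over the ALLO libraries, or 109-fold (95% interval 19.3 to 4343, counting error only; edgeR adjusted p = 0.00758). Both ISO counts were in replicate 1, and the fitted log2 change of Pacsin1 was 6.64, 9.98 without ISO replicate 1, where no ISO count is left and the value is no bound, and 5.71 without ISO replicate 2. The EHD paralogues Ehd1, Ehd3 and Ehd4 had log2 changes of -0.38, 0.18 and -0.11 and did not pass, nor did Cavin4, the muscle cavin, which was at most 1.04 CPM in any library. Dynamin 2 (Dnm2), a fission GTPase, was at 0.72 (edgeR adjusted p = 0.0544). Dnm2 passed as higher in 6 of 14 other settings of the scaling, filter, test or libraries, with adjusted p values of 0.0481 (edgeR with DESeq2 size factors), 0.0329 (edgeR scaled by library size alone), 0.0472 (edgeR on halved counts), 0.0395 (limma-voom), 0.00771 (the DESeq2 Wald test) and 0.0405 (edgeR without ALLO replicate 1).

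Dystroglycan and the enzymes that add its laminin-binding glycan gave 6 of 12 lower, none higher and a median log2 change of -0.82. Over all genes tested the shares were 14.8% lower and 18.4% higher. Dag1, which encodes both subunits of dystroglycan, had 562 and 658 CPM in ISO and 183 and 229 CPM in ALLO (log2 change -1.57 ± 0.25, edgeR adjusted p = 0.0107). Dmd, its partner on the cytosolic side, had a log2 change of -4.03. Among the enzymes, B3galnt2, which adds N-acetylgalactosamine to the core glycan, had the change with the smallest adjusted p, from 132 and 147 CPM to 24.0 and 25.0 CPM (-2.51 ± 0.18, edgeR adjusted p = 0.00287). Pomgnt2, a glycosyltransferase of the same core, changed by -2.53 ± 0.43 (edgeR adjusted p = 0.0126); leaving out ALLO replicate 2 gave -3.16. Pomgnt1, which extends another mannose-linked glycan of dystroglycan, changed by -1.44 ± 0.23 (edgeR adjusted p = 0.0108), though 11.7% of its exonic bases overlap another gene. Of the 6 lower genes, Pomt1 lost its call in 8 of those 14 settings. Values that did not pass ran from -0.76 (B4gat1) to 0.27 (Pomk).

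Dystroglycan's ligands in the matrix gave 2 of 7 lower and 1 higher, with a median log2 change of -1.46. Among all genes tested, 14.8% were called lower and 18.4% higher. Egflam, which encodes pikachurin, changed by -2.03 ± 0.32 (edgeR adjusted p = 0.0108) at 10.8 and 10.4 CPM in ISO and 2.47 and 2.72 CPM in ALLO. Lama4, a laminin chain of vessel basement membrane, changed by -1.56 ± 0.30 (edgeR adjusted p = 0.0176, and 0.0547 without ISO replicate 2). Lama1, a laminin chain best known from the embryo, rose from 6 counts over both ISO libraries to 230 in ALLO, a ratio of 31.1 (95% interval 10.4 to 153, counting error only; edgeR adjusted p = 0.00659). Hspg2 (perlecan) and Lama5 had a log2 change of -1.46 each, with edgeR adjusted p values of 0.0633 and 0.0714, and Lama2, the main ligand in muscle, had -1.95 (0.0956). ALLO replicates differed widely here. Replicate 2 was 2.14-fold replicate 1 in Hspg2 and 2.61-fold in Lama5, whereas Lama2 had 42.7 CPM in ALLO replicate 1 and 10.8 in ALLO replicate 2. The number of lower ligands depended on the test and on single libraries. It was 5 with no filter and with the DESeq2 Wald test, and 4 with limma-voom, with the replicate block, without ISO replicate 1 and without ALLO replicate 2. It was 1 without ISO replicate 2.

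On the cytosolic side, 4 of 8 genes of utrophin, the dystrobrevins, syntrophins and Nos1 fell and none rose (median log2 change -1.37). The shares over all genes tested were 14.8% lower and 18.4% higher. Dtna, which encodes the alpha-dystrobrevin that binds dystrophin's C-terminus, had 127 and 137 CPM in ISO and 7.81 and 6.40 CPM in ALLO (-4.21 ± 0.21, edgeR adjusted p = 0.00214). Its paralogue Dtnb had 9.88 and 9.66 CPM against 11.1 and 11.8 CPM and did not pass (0.23 ± 0.26). Among syntrophins, the adaptor proteins of the complex, Sntg2 changed by -5.12 ± 0.37 and Sntb1 by -2.21 ± 0.20 (edgeR adjusted p = 0.00284 and 0.00388). Sntb2 had 96.9 and 107 CPM in ISO and 112 and 99.7 CPM in ALLO (0.05 ± 0.18). Nos1, the nitric oxide synthase that syntrophin tethers in striated muscle, was at most 2.05 CPM in any library, and Sntg1 was too low to be tested.

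Dense plaques, the integrin sites that alternate with caveolae along the smooth muscle membrane, gave 9 of 12 genes lower and none higher. Among all genes tested, 14.8% were called lower and 18.4% higher. The median log2 change of the list was -2.43. Itga8, the integrin alpha8 chain, had 3357 and 4038 CPM in ISO and 76.7 and 109 CPM in ALLO. Fermt2 (kindlin-2, an integrin activator) changed by -2.91 ± 0.23 and Lims2, an adaptor of the integrin-linked kinase complex, by -3.83 ± 0.41 (edgeR adjusted p = 0.00325 and 0.00479), the latter by -4.42 without ALLO replicate 2. Vcl, which encodes vinculin, changed by -2.55 ± 0.29 (edgeR adjusted p = 0.00522), with 25.5% of its exonic bases shared with another gene. Ilk counted among the 9, but 89.7% of its exonic bases overlap other genes and its level of at most 2.51 CPM is uncertain. The talin genes Tln1 and Tln2 and the adaptor gene Lims1 had log2 changes of -0.62, 0.10 and 0.22 and did not pass. The number of lower genes in this list depended on the test. It was 8 when tested against 1.5-fold, where Parva (log2 change -1.10) lost its call (edgeR adjusted p = 0.0515). With the DESeq2 Wald test it was 10, as Tln1 passed.

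Over all 6 lists of partners, 26 of 51 genes fell and 2 rose (14.8% and 18.4% of all genes tested), with a median log2 change of -1.44 among the 49 that were tested. All of them come from the same 4 libraries, so the genes are not independent observations. Fibroblast markers were lower in 2 of 8 cases and higher in none, with none at 0 (summed level 7517 and 9828 CPM in ISO, 14527 and 19773 in ALLO). Most of this sum came from 2 collagen genes. Col1a1 had 1974 and 3357 CPM in ISO and 5918 and 10462 in ALLO. Col1a2 had 2892 and 4609 CPM in ISO and 5548 and 7636 in ALLO. Neither passed (edgeR adjusted p = 0.0702 and 0.230). Leukocyte markers were higher in 6 of 8 cases, and the part of added leukocyte RNA in the lower shares of vessel wall transcripts was not tested.

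**Figure D5:**
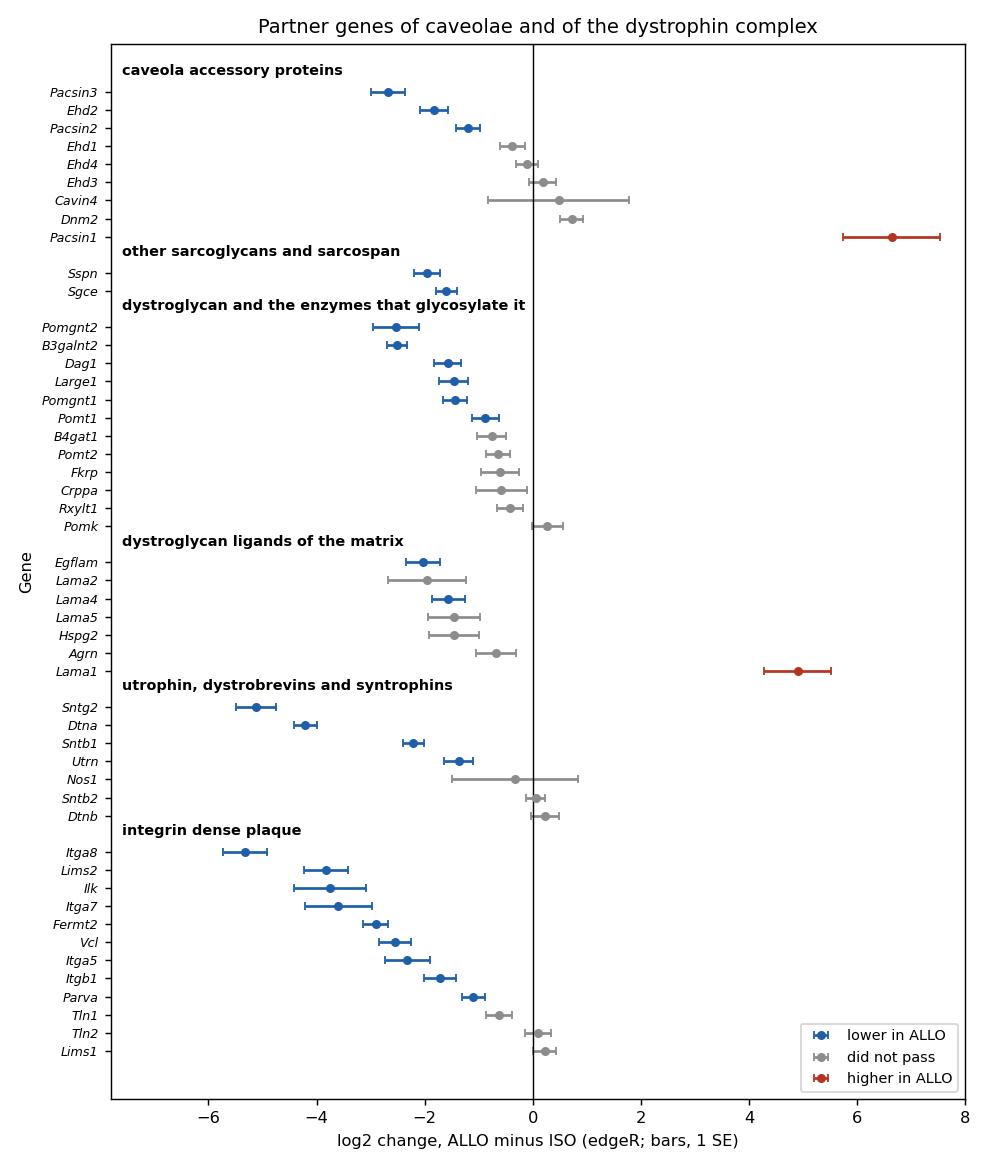
log2 change in ALLO grafts (horizontal axis) of the 49 tested partner genes in 6 lists, with 1 SE from edgeR as bars; blue points were called lower, red higher and grey did not pass. Most coloured points lie left of 0, and Pacsin1 and Lama1, which were almost without counts in ISO, lie far to the right.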

How the data were processed

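A table of raw counts with exonic lengths was deposited by the authors for 4 libraries. Per the submitters' processing notes, featureCounts of Subread 1.6.4, DESeq2 1.30.0, R 4.0.3 and build mm10 were used; no aligner, annotation release or strand setting is given in the sources used here. Gene IDs were named from GENCODE M21 without their version. Between 68.0% and 74.6% of counts from 1 to 20 were even, as when both mates of a pair are counted, so the floor was 6 counts, or 3 read pairs, per library, and 95% counting intervals used halved counts.

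Genes were filtered with filterByExpr (minimum count 10), scaled by TMM (factors 0.926 to 1.09) and tested with edgeR 4.0.16 (glmQLFit, glmQLFTest, no term but group), and p-values were adjusted by Benjamini-Hochberg over 16498 genes. SE is the log2 change over the square root of the F statistic. CPM uses the TMM-scaled library size. The fit was also run on simulated counts with few changed genes and a single dispersion. In these libraries 33.1% of genes were called, so that run gives no error rate for them. Alternatives used limma 3.58.1 (voom) and DESeq2 1.42.0. Tables and plots used Python 3.11.15 with matplotlib 3.10.9, scipy 1.17.1 and pandas 2.3.3.

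Members and lists were chosen with earlier results of these data known. Named genes are all members, up to 4 per partner list and direction with the smallest adjusted p, and Utrn and Sgce; other genes named were singled out after their values were seen. Some genes of the partner lists are not reported here, and the counts and medians of those lists leave them out. Replicates did not agree within sampling noise (chi-square over degrees of freedom 45.7 in ISO and 154 in ALLO). Intervals cover counting error only, since they pool the libraries of a group and leave out the spread between them. PCR reads carried no molecular identifiers, so even the counting error may be larger than these intervals show.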

Additional observations from a re-analysis of the deposited data

How the results depend on the processing

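Each of the 10 members kept its direction under the 14 alternatives, and 138 of 140 values kept their side of the threshold. The exceptions were Cav3 with the DESeq2 Wald test and Cavin2 without ALLO replicate 1, given above, so 8 to 10 members were called. Leaving out 1 library gave 3603 to 4651 called genes, 1512 to 2245 of them lower and 2054 to 2506 higher, 9 to 10 called members and 22 to 29 called partner genes, 20 to 27 of them lower and 2 to 3 higher. Leaving out ISO replicate 2 gave the lowest totals of called and of lower genes. Testing against 1.5-fold gave 1565 lower genes, beside 2437. Scaling by library size alone moved the median of all genes by 0.19 (log2) and gave 3546 higher and 1867 lower genes (65.5% higher, beside 55.4% in the fit reported). Without Casq2 the differences relative to smooth muscle were 1.53 for Cav1, 2.44 for Cav2, 1.64 for Cavin1, 2.12 for Cavin3, 1.80 for Sgcb, -0.76 for Sgca and 0.31 for Dmd, which turned direction; one marker fewer in the mean is what changed. Adding 0.1, 1 or 2 CPM in place of 0.5 gave -2.32, -0.38 and 0.28 for Cav3, which turned direction at 2, and -1.87, -0.82 and -0.22 for Sgca, since both are near 0 in ALLO. Ratios between genes change over groups by the same amount with and without length scaling, but which gene is higher can depend on it, as for Sgca and Sgce in ISO. The labels do not say that same-numbered libraries share more than the number. The correlation of their deviations was 0.0974, which cannot tell whether they share a day or batch. With the replicate block, 4873 genes, 9 members and 29 partner genes were called. Depth limits Cav3, Sgca, Pacsin1, Lama1 and the marker Ckm, which rest on few counts in at least one group.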
